A study of Homo sapiens with 6 samples.

Results

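The genes described here are 9 components of the bone morphogenetic protein (BMP) and transforming growth factor beta (TGF-beta) pathways, chosen by name out of 18417 genes measured on the arrays. They were the ID genes ID1, ID2, ID3 and ID4, the pathway inhibitors SMAD6, SMAD7 and BAMBI, and the ligands BMP2 and BMP4, and all 9 had a probe set paired with a single gene symbol. Expression was measured with 6 single-colour Affymetrix whole-transcript arrays in HCT116, an established human colorectal carcinoma cell line. The first group was 3 arrays labelled siChe-1, from cells transfected with small interfering RNA duplexes against Che-1, the product of the AATF gene. The second was 3 arrays labelled control, from cells transfected with a duplex against GFP, a protein foreign to the cells. All cells were grown in DMEM with serum, carried no other labelled modification and were taken 48 h after transient transfection, and 6 micrograms of total RNA were labelled per array.

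BMP and TGF-beta ligands bind paired receptor kinases at the cell surface, which phosphorylate signalling SMAD proteins that enter the nucleus with SMAD4 and regulate transcription. ID1, ID2 and ID3 are classical direct targets of the BMP branch, and they encode helix-loop-helix proteins without a basic region, which hold E proteins off DNA and oppose differentiation. SMAD6, SMAD7 and BAMBI are induced by the pathway and restrain it, so that their transcripts form a negative feedback. In colon epithelium BMP signalling is known for promoting differentiation toward the crypt surface, and HCT116 cells carry an inactivated TGFBR2, the receptor that TGF-beta itself needs.

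AATF went against the labels. It read 8.53, 8.81 and 8.87 on the arrays labelled siChe-1, against 7.55, 7.75 and 7.55 on those labelled control (log2 RMA intensity), a difference of 1.12 ± 0.13 (SE, limma adjusted p = 0.00122). The groups are therefore named by their labels throughout, and every direction below would turn if the labels were exchanged. The array labelled siChe-1 replicate 1 stood apart: the SD over genes of its difference from the other arrays of its group was 0.37 and 0.39 on the log2 scale, against 0.20 to 0.25 for the other 4 pairs within a group. The results for the 9 genes and for the pathway genes named are therefore also given without it. In such bulk RNA, fewer cells of a kind and less RNA per cell cannot be told apart. The labels do not say whether replicates were separate cultures, so p-values measure the spread between these arrays. The medians of the arrays lay between 4.95 and 5.05, and levels are compared between arrays for each gene and not between genes, because probe sets differ in response.

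Of the 9 genes, ID3 was higher on the siChe-1 arrays at an adjusted p under 0.05 over all 18417 genes, and the other 8 did not pass. Of all genes 3.72% passed in either direction, with 1.19% higher and 2.52% lower. The 9 differences had a median of 0.26 on the log2 scale, against 0.01 over all genes, with 5 above 0 and 4 below. In 7 of the 9 genes the groups did not overlap, 4 with the siChe-1 arrays above and 3 with them below, and over all genes this held for 24.0%. The smallest p that an exact permutation test of 3 arrays against 3 can give is 0.1, so no single gene can reach 0.05 by that test. Without siChe-1 replicate 1, 5 of the 9 passed, namely ID1, ID3, SMAD6 and BMP4 higher and BAMBI lower, beside 8.50% of all genes. With any other single array left out, 0 or 1 of the 9 passed.

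**Figure D1:**
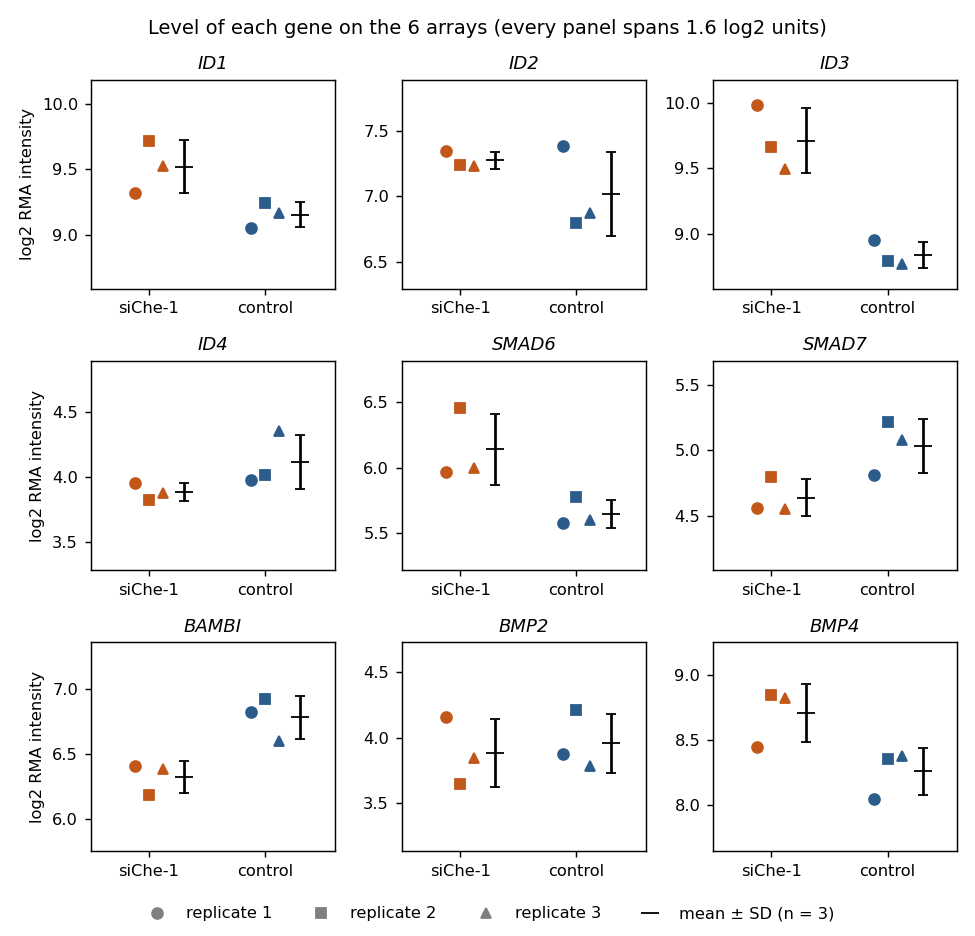
Log2 RMA intensity (vertical axis) of each of the 9 genes on the 3 arrays labelled siChe-1 (left, orange) and the 3 labelled control (right, blue), with marker shape giving the replicate and the bar the mean ± SD (n = 3). ID3 shows the widest gap, with siChe-1 arrays from 9.49 to 9.99 and control arrays from 8.77 to 8.95, and ID2 and BMP2 are the genes whose groups overlap.

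ID3 encodes an inhibitor of E proteins best known from lymphocyte and vascular development. It read 9.99, 9.66 and 9.49 on the siChe-1 arrays, against 8.95, 8.79 and 8.77 on the control arrays. Every siChe-1 array lay above every control array, and siChe-1 replicate 1 was the highest of all 6. The means were 9.71 ± 0.25 for siChe-1 and 8.84 ± 0.097 for control (SD, n = 3 each). The difference of 0.87 ± 0.15 (SE) is 1.83-fold, with a 95% confidence interval of 1.46-fold to 2.30-fold and limma adjusted p = 0.00935. Without siChe-1 replicate 1 the difference was 0.74 (adjusted p = 0.00461). The call was lost without control replicate 2 (difference 0.85, adjusted p = 0.0633) and without control replicate 3 (difference 0.84, adjusted p = 0.0654).

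ID1, the member of the family most used as a readout of BMP signalling, read 9.32, 9.72 and 9.52 on the siChe-1 arrays, against 9.05, 9.25 and 9.16 on the control arrays. The groups did not overlap, but siChe-1 replicate 1 and control replicate 2 were separated by less than 0.1. The difference was 0.37 ± 0.14 (SE), with an interval of 0.07 to 0.67 on the log2 scale, and it did not pass (limma adjusted p = 0.183). Without siChe-1 replicate 1 it was 0.47 and passed (adjusted p = 0.0382). With any other single array left out it did not pass, and it was lowest without siChe-1 replicate 2 (0.27, adjusted p = 0.376).

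ID2, which encodes the family member known for binding the retinoblastoma protein, read 7.35, 7.24 and 7.23 on the siChe-1 arrays, against 7.39, 6.80 and 6.87 on the control arrays. Control replicate 1 was the highest of all 6 arrays, so the groups overlapped. The difference of 0.26 ± 0.16 (SE) had an interval of -0.10 to 0.62 (limma adjusted p = 0.459). It was 0.22 without siChe-1 replicate 1 (adjusted p = 0.484), and it lay between 0.15 and 0.44 when any single array was left out, with the lowest value without control replicate 2 and the highest without control replicate 1.

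ID4, which encodes the member best known from neural progenitors and mammary epithelium, read 3.96, 3.82 and 3.87 on the siChe-1 arrays, against 3.98, 4.01 and 4.35 on the control arrays. The control arrays lay above the siChe-1 arrays, and replicate 1 of both groups differed by less than 0.03. The difference was -0.23 ± 0.13 (SE, limma adjusted p = 0.424) with an interval of -0.53 to 0.07, and -0.26 without siChe-1 replicate 1 (adjusted p = 0.277). Without control replicate 3, the highest array, it was -0.11 (adjusted p = 0.766). These levels lie below every array's median and may be background, so whether ID4 transcript was present is not known.

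Pairs of ID genes were also compared within each array. The log2 level of ID3 minus that of ID1 was 0.67, -0.06 and -0.03 on the siChe-1 arrays, against -0.10, -0.45 and -0.39 on the control arrays. The groups did not overlap, with a gap of less than 0.1 between siChe-1 replicate 2 and control replicate 1. The mean of this quantity was 0.51 higher for siChe-1 (exact two-sided permutation p = 0.1, the smallest possible), and 0.27 higher without siChe-1 replicate 1. For ID3 minus ID2 the siChe-1 mean was 0.62 higher (exact permutation p = 0.1) and 0.52 higher without that array. For ID1 minus ID2 it was 0.11 higher with overlapping groups (exact permutation p = 0.7) and 0.25 higher without that array. These are 3 of 5 such pairs computed, all chosen after the values of the genes were seen.

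The 250 bases before the annotated start of ID3 and of ID1 (RefSeq, GRCh38.p14) are shown because these were the ID genes that read higher on every siChe-1 array than on any control array, and those of BAMBI because, of the 3 genes that read lower on every siChe-1 array, it had the smallest adjusted p. Capitals mark exact matches on either strand to GGCGCC, a GC-rich element bound by BMP-activated SMADs, to CAGAC, the core of the SMAD box, and to TATAAA, the TATA element. The ID3 window is chr1:23559502-23559751 on the minus strand, the ID1 window is chr20:31605039-31605288 on the plus strand and the BAMBI window is chr10:28677271-28677520 on the plus strand.
ID3: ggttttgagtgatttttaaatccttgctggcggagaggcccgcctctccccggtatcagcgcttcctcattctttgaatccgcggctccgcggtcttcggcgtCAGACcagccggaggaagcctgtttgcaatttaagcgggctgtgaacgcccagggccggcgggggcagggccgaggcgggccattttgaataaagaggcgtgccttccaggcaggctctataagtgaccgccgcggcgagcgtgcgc
ID1: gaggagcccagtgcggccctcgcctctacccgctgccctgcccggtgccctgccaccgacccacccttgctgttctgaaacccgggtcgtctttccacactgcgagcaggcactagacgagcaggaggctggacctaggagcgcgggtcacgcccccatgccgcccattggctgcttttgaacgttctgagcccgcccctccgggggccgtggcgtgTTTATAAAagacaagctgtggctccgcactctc
BAMBI: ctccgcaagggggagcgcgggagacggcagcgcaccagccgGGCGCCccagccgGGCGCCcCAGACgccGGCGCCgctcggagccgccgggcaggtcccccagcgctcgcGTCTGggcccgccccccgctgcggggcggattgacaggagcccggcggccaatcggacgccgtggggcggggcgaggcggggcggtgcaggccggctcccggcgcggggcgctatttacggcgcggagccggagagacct
The BAMBI window held 3 GGCGCC matches and 2 CAGAC matches within 81.2% G and C. The ID3 window held 1 CAGAC match and none of the other motifs. The ID1 window held 2 overlapping TATAAA matches, on opposite strands, whose first bases lay 33 and 31 bases before the start. Over 35116 windows of the same length, 16.4% held GGCGCC, 38.0% held CAGAC and 10.7% held TATAAA. Windows were found for 8 of the 9 genes, 12 windows in all because BMP4 and SMAD7 have several starts, and GGCGCC was in windows of 2 genes, BAMBI and BMP4. CAGAC was in windows of 5 genes, BAMBI, BMP4, ID3, ID4 and SMAD7, and TATAAA in windows of 3, ID1, ID4 and SMAD7. Matches were counted here by gene, and genes with several windows have more chances of a match. The counts are therefore not directly comparable with the shares over windows. CAGCTG, an E-box that E proteins bind, was in the windows of ID2 and ID4 and in 14.0% of all windows. TGACGTCA, the cyclic AMP response element, was in no window of the 9 genes and in 1.65% of all windows.

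SMAD6 and SMAD7, the inhibitory SMADs, lay on opposite sides of 0, and neither passed. SMAD6, which acts mainly on BMP receptors, read 5.97, 6.46 and 6.00 on the siChe-1 arrays, against 5.58, 5.77 and 5.60 on the control arrays. All siChe-1 arrays were above all control arrays, with siChe-1 replicate 2 well above the rest. The difference was 0.49 ± 0.15 (SE), with an interval of 0.15 to 0.83 and limma adjusted p = 0.114. It passed without siChe-1 replicate 1 (0.58, adjusted p = 0.0383). With any other single array left out it did not pass, and it was lowest without siChe-1 replicate 2 (0.33, adjusted p = 0.252).

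SMAD7, which blocks both the TGF-beta and the BMP branch, read 4.56, 4.80 and 4.55 on the siChe-1 arrays, against 4.81, 5.22 and 5.08 on the control arrays. The siChe-1 arrays were below the control arrays, although siChe-1 replicate 2 and control replicate 1 were almost equal. The difference was -0.40 ± 0.14 (SE, limma adjusted p = 0.167) with an interval of -0.71 to -0.08, and -0.36 without siChe-1 replicate 1 (adjusted p = 0.163). The siChe-1 levels were below the array medians and may be background.

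The log2 level of SMAD6 minus that of SMAD7 was 1.40, 1.65 and 1.45 on the siChe-1 arrays, against 0.77, 0.55 and 0.52 on the control arrays. The groups could only separate on this measure, because SMAD6 was higher and SMAD7 lower on every siChe-1 array. The permutation p below was fixed in the same way and adds no evidence to that of the single genes. The means were 1.50 ± 0.13 for siChe-1 and 0.61 ± 0.13 for control (SD, n = 3 each), a difference of 0.89 (exact two-sided permutation p = 0.1, the smallest possible), and 0.94 without siChe-1 replicate 1. The pair was chosen after its values were seen.

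BAMBI encodes a receptor-like membrane protein that lacks the kinase domain and so blocks receptor complexes. It read 6.41, 6.18 and 6.38 on the siChe-1 arrays, against 6.82, 6.92 and 6.60 on the control arrays. The siChe-1 arrays were all below the control arrays. The difference was -0.45 ± 0.13 (SE), with an interval of -0.75 to -0.16 and limma adjusted p = 0.0928. Without siChe-1 replicate 1 it was -0.50 and passed (adjusted p = 0.0434). With any other single array left out it did not pass, and it was smallest without control replicate 2 (-0.38, adjusted p = 0.309).

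Of the ligands, BMP4, a secreted BMP made by many colorectal carcinoma lines, read 8.45, 8.84 and 8.82 on the siChe-1 arrays, against 8.05, 8.35 and 8.38 on the control arrays. The groups did not overlap, with siChe-1 replicate 1 less than 0.1 above the highest control array, and replicate 1 was the lowest of each group. The difference was 0.44 ± 0.15 (SE), with an interval of 0.11 to 0.78 and limma adjusted p = 0.146. It was 0.57 without siChe-1 replicate 1 and then passed (adjusted p = 0.0231). With any other single array left out it did not pass, and it was lowest without control replicate 1 (0.34, adjusted p = 0.415).

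BMP2, its closest relative among the ligands, read 4.16, 3.65 and 3.85 on the siChe-1 arrays, against 3.88, 4.21 and 3.79 on the control arrays. The groups overlapped throughout and the levels were low and may be background. The difference was -0.08 ± 0.16 (SE, limma adjusted p = 0.863) with an interval of -0.44 to 0.29. It was -0.21 without siChe-1 replicate 1 (adjusted p = 0.427). Its sign changed when siChe-1 replicate 2 or control replicate 2 was left out, to 0.042 and 0.051, and it was -0.12 without control replicate 1 and -0.16 without control replicate 3. The log2 level of BMP4 minus that of BAMBI, a ligand against a decoy receptor, averaged 2.38 ± 0.32 on the siChe-1 arrays and 1.48 ± 0.28 on the control arrays (SD, n = 3 each), with no overlap and exact two-sided permutation p = 0.1. The difference was 0.90, and 1.07 without siChe-1 replicate 1. BMP4 was higher and BAMBI lower on every siChe-1 array, so the lack of overlap and this p were fixed by the single genes.

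**Figure D2:**
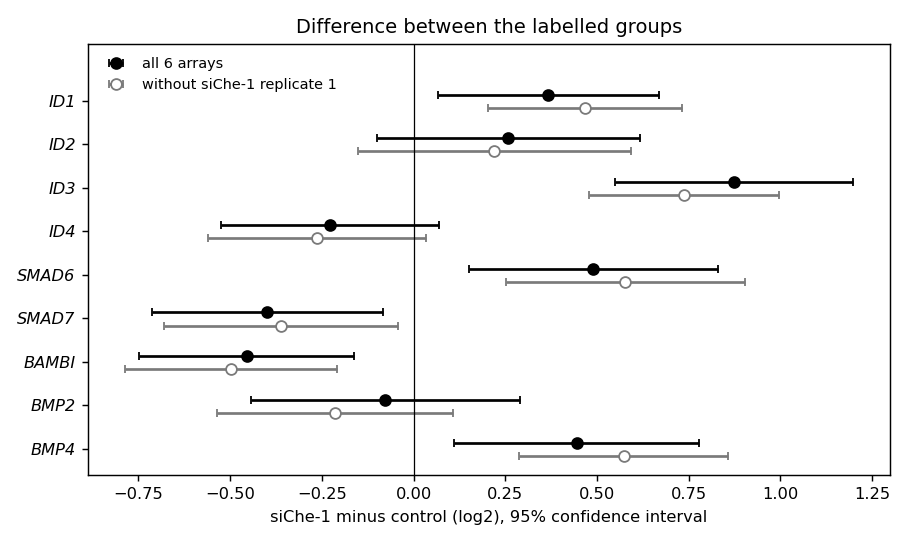
Difference between the arrays labelled siChe-1 and those labelled control (log2, horizontal axis) for the 9 genes, with 95% confidence intervals from limma, over all 6 arrays (filled) and without siChe-1 replicate 1 (open). ID3 lies at 0.87 with all arrays and 0.74 without that replicate, and the intervals of ID2, ID4 and BMP2 include 0 in both fits.

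The arrays of 1 group did not vary in one pattern over the 9 genes. Relative to each gene's mean over the 6 arrays, siChe-1 replicate 1 stood at 0.71 for ID3, the furthest of any array from its gene's mean, and at -0.02 for ID1 and -0.04 for BMP4. SiChe-1 replicate 2 had the highest level of ID1, SMAD6 and BMP4 and the lowest of ID4, BAMBI and BMP2. Control replicate 1 had the lowest level of ID1, SMAD6 and BMP4 and the highest level of ID2. Replicate numbers were given in both groups, but nothing in the labels ties equal numbers to a shared culture.

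**Figure D3:**
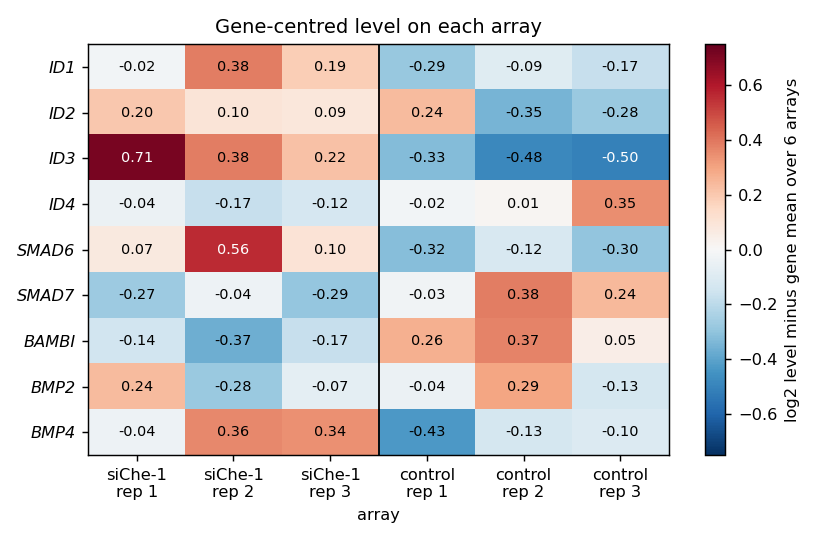
Log2 level of each gene (vertical axis) on each array (horizontal axis) after subtracting the gene's mean over the 6 arrays, with siChe-1 arrays left of the line and control arrays right of it. ID1, ID3, SMAD6 and BMP4 are higher on the left and SMAD7 and BAMBI higher on the right, with siChe-1 replicate 1 at 0.71 for ID3 and -0.02 for ID1.

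By root-mean-square difference between gene-centred log2 values over the 6 arrays, the genes most like ID3 were MKNK2 (0.055), NOTCH3 (0.069) and RAB26 (0.097). MKNK2, which encodes a kinase of the translation factor eIF4E, read 9.27, 8.83 and 8.74 on the siChe-1 arrays, against 8.15, 8.11 and 8.08 on the control arrays. NOTCH3, a Notch receptor gene, read 7.17, 6.86 and 6.78 on the siChe-1 arrays, against 6.27, 6.17 and 5.99 on the control arrays. RAB26, a small GTPase gene, read 7.92, 7.69 and 7.64 on the siChe-1 arrays, against 7.07, 7.04 and 6.86 on the control arrays. All 3 share with ID3 the order of arrays within each group, including the high siChe-1 replicate 1. They were picked for likeness to ID3 over these arrays, so the shared order and their calls are no separate support. The MKNK2 call (adjusted p = 0.0146) was lost without any single control array, the NOTCH3 call (0.0134) without control replicate 2 or 3, and the RAB26 call (0.0101) without control replicate 3. The differences without siChe-1 replicate 1 were 0.67 for MKNK2 (adjusted p = 0.00487), 0.68 for NOTCH3 (0.00846) and 0.67 for RAB26 (0.00680). The nearest of the other 8 genes was SMAD6 (0.32), and ID1 was at 0.36.

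Around the 9 genes, 106 other measured genes of the pathway were grouped by role, and 1 of them was higher and 4 were lower, beside 3.72% of all genes called. Their median difference was 0.04. Of 29 other ligands, GDF15, a distant relative of the TGF-beta ligands known as a stress cytokine, was higher at 10.55 ± 0.18 against 9.41 ± 0.14 in control (SD, n = 3 each, limma adjusted p = 0.00120). The remaining 28 ligands did not pass. By limma none of 15 receptors and co-receptors passed, and 5 had an unadjusted p under 0.05, beside 17.7% of all genes. The nearest was RGMB, which encodes a BMP co-receptor, at 6.35 ± 0.12 for siChe-1 and 5.89 ± 0.069 for control (SD, n = 3 each, adjusted p = 0.0648), and it passed without siChe-1 replicate 1 (adjusted p = 0.0230). TGFBR1, a TGF-beta receptor kinase gene (0.67, adjusted p = 0.00481), and ACVR1C, a related receptor kinase gene (0.65, adjusted p = 0.0428), passed without that array too.

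Of 6 signalling SMADs, SMAD3, a carrier of TGF-beta and activin signals, was lower. It read 8.77, 8.65 and 8.58 on the siChe-1 arrays, against 9.29, 9.08 and 9.40 on the control arrays, and the groups did not overlap. The difference was -0.59 ± 0.13 (SE), 1.50-fold lower, with limma adjusted p = 0.0337, and -0.64 without siChe-1 replicate 1 (adjusted p = 0.0126). The call was lost when siChe-1 replicate 2 (adjusted p = 0.0830) or 3 (0.123) was left out, and when control replicate 1 (0.147), 2 (0.0598) or 3 (0.141) was. Of the SMADs that carry BMP signals, SMAD1 differed by 0.09, SMAD5 by -0.06 and SMAD9 by 0.37, and none passed (adjusted p = 0.191 for SMAD9, the smallest of these). SMAD4, the shared partner, differed by -0.02 and SMAD2, which carries TGF-beta and activin signals, by 0.34, and neither passed. With siChe-1 replicate 1 left out, SMAD2 passed (0.46, adjusted p = 0.0256), and SMAD1 (0.08), SMAD9 (0.46) and, with their signs changed, SMAD4 (0.10) and SMAD5 (0.12) did not.

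By limma none of 14 extracellular antagonists passed, and 0 of them had an unadjusted p under 0.05, beside 17.7% of all genes. The nearest was FSTL3, which encodes an activin-binding protein (-0.27, adjusted p = 0.294, and -0.34, adjusted p = 0.104, without siChe-1 replicate 1). Of 16 intracellular regulators, USP15 was lower and 15 did not pass. USP15 encodes a deubiquitinase that stabilises the TGF-beta receptor. It read 6.83, 7.44 and 7.40 on the siChe-1 arrays, against 8.08, 7.90 and 7.95 on the control arrays, with siChe-1 replicate 1 the lowest. The difference was -0.75 ± 0.17 (SE, limma adjusted p = 0.0383), and -0.56 without siChe-1 replicate 1 (adjusted p = 0.0145). The call was lost when siChe-1 replicate 3 (adjusted p = 0.0613) or control replicate 1 (0.169), 2 (0.130) or 3 (0.134) was left out.

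By limma none of 11 measured helix-loop-helix partners and relatives passed, and 3 had an unadjusted p under 0.05, beside 17.7% of all genes. TCF12, which encodes an E protein that ID proteins bind, was nearest at 8.63 ± 0.22 for siChe-1 and 8.10 ± 0.13 for control (SD, n = 3 each, adjusted p = 0.0766), and it passed without siChe-1 replicate 1 (adjusted p = 0.0171). Of 15 target genes of the pathway, SNAI2 (log2 difference -2.76, adjusted p = 1.15e-05) and THBS1 (-1.16, adjusted p = 0.00186) were lower, and 13 did not pass. SNAI2 encodes a repressor of epithelial genes, and its siChe-1 level of 3.73 may be background. THBS1 encodes thrombospondin, an activator of latent TGF-beta. Without siChe-1 replicate 1, 12 of the 106 genes passed, 6 higher and 6 lower, beside 8.50% of all genes. The differences were then 1.08 for GDF15, -2.83 for SNAI2 and -1.20 for THBS1. TGFB1, a TGF-beta ligand gene (-0.78, limma adjusted p = 0.0210), and JUNB, a target gene (-0.85, adjusted p = 0.00265), then passed too, both lower. TGFBR2 read 7.64 ± 0.25 for siChe-1 and 7.88 ± 0.064 for control (SD, n = 3 each), a difference of -0.25 (adjusted p = 0.416), and -0.10 without siChe-1 replicate 1 (adjusted p = 0.622).

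**Figure D4:**
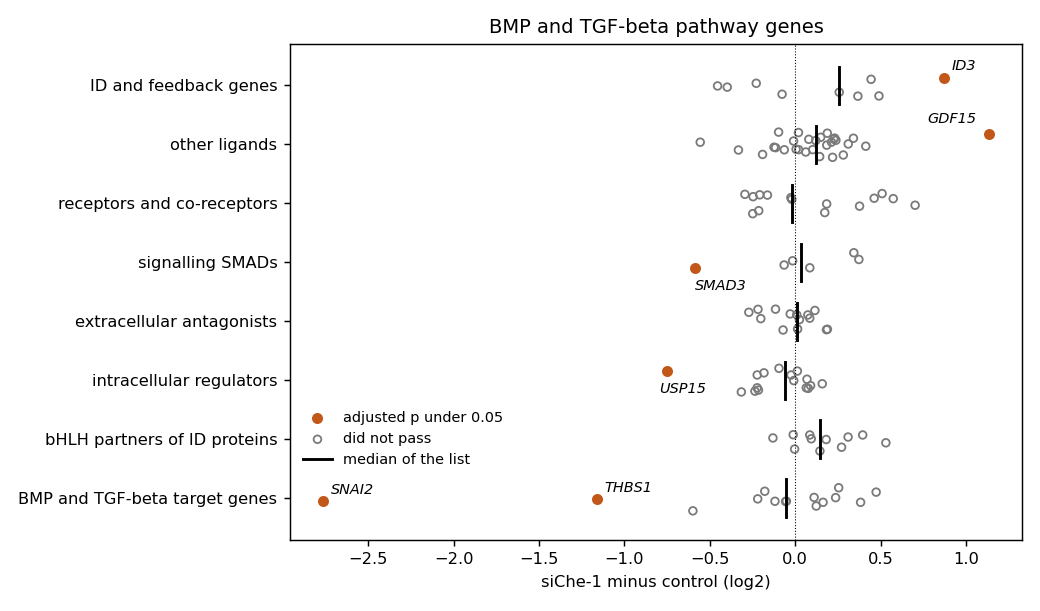
Difference between the arrays labelled siChe-1 and those labelled control (log2, horizontal axis) for the 9 genes (top) and 106 other pathway genes by role, each point a gene, filled where limma's adjusted p was under 0.05, with a bar at the median of each list. ID3 and GDF15 are the filled points above 0, and SMAD3, USP15, THBS1 and SNAI2 those below.

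Epithelial markers matched the labelled cell type, with KRT8 averaging 12.1 for siChe-1 and 12.5 for control and EPCAM 10.1 for siChe-1 and 10.4 for control. Markers of differentiated enterocytes were low, with VIL1 at 3.71 for siChe-1 and 3.63 for control and KRT20 at 4.12 for siChe-1 and 4.30 for control. Of 10 such markers KRT19 was lower (-0.59, adjusted p = 0.0171, lost without any single array other than siChe-1 replicate 1) and 9 did not pass. It was -0.58 without siChe-1 replicate 1 (adjusted p = 0.00974), and KRT18 then passed too (-0.44, adjusted p = 0.0383). The 10 differences had a median of -0.11, with 3 above 0 and 7 below. CDH1, the gene of E-cadherin, averaged 8.17 for siChe-1 and 7.85 for control (adjusted p = 0.167), and CDX1, an intestinal transcription factor gene, 6.11 for siChe-1 and 5.69 for control (adjusted p = 0.120), each with every siChe-1 array above every control array. KRT8, KRT18 and KRT19 had every siChe-1 array below every control array. The groups thus did not overlap in 5 of the 10 markers, beside 24.0% of all genes. The summed linear intensity of the 10 was 10569 to 11233 on the siChe-1 arrays, against 14326 to 14576 on the control arrays. The brightest markers, KRT8, KRT18, KRT19 and EPCAM, make up most of this linear sum, so it does not describe the 10 evenly. By limma none of 18 markers of leukocytes, fibroblasts and endothelium passed, and 1 had an unadjusted p under 0.05, beside 17.7% of all genes. The groups did not overlap in 6 of these 18, beside 24.0% of all genes. Summed leukocyte markers gave 126 to 141 on siChe-1 arrays and 119 to 122 on control arrays. Summed fibroblast markers gave 68 to 78 on siChe-1 arrays and 66 to 70 on control arrays, and endothelial markers 49 to 55 on siChe-1 arrays and 46 to 50 on control arrays. PTPRC, the defining leukocyte marker, averaged 2.46 for siChe-1 and 2.41 for control, and TYROBP averaged 6.07 for siChe-1 and 5.84 for control. TYROBP was the brightest leukocyte marker and weighs most in the leukocyte sum, which does not describe these markers evenly. No marker was listed at 0. The part of these shifts in the results above was not tested.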

How the data were processed

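The deposited values were log2 intensities of 33297 probe sets on 6 arrays. Per the submitters' processing notes the authors used Affymetrix Expression Console and RMA, with versions and settings not given in the sources used here. RMA subtracts background, quantile-normalizes arrays and summarises probes, which hides any change in total RNA and compresses differences of dim genes. There are no detection calls. Precision is limited by the small number of arrays.

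The platform annotation paired 19460 probe sets with 1 symbol. The probe set with the highest mean was used per gene, leaving 18417 genes, and none of the 9 genes shared a probe set with another symbol. Differences (siChe-1 minus control, as labelled) were fitted over all genes with limma 3.58.1 under R 4.3.3, by lmFit and eBayes without covariates or a filter, with Benjamini-Hochberg adjustment and a threshold of 0.05. Errors of groups are SDs and errors of differences moderated SEs. Exact permutation tests used scipy 1.17.1. The fit was also run on simulated data with 200 changed genes, where it recovered 67% of 2-fold and 100% of 4-fold changes. All 9 genes differed by less than 2-fold, a size that was not simulated, so not passing does not show the absence of a difference. The genes and lists were chosen with earlier results of these data known. The genes named were the 9, AATF, the called genes of each pathway list (or the one with the smallest p) and the 3 genes nearest to each called gene of the 9. TGFBR1, TGFBR2, ACVR1C, TGFB1, JUNB, the other signalling SMADs and the markers named were chosen after their values were seen. Alternatives changed the normalization or centring, the handling of dim genes and probe sets, the variance prior, the weights of arrays, the threshold or the arrays used, or added a replicate block. Promoter sequences are from RefSeq.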

Additional observations from a re-analysis of the deposited data

How the results depend on the processing

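Over 15 alternatives, the 9 genes gave 132 values, of which 118 kept their direction and side of the threshold, 10 passed where they had not, 2 no longer passed (ID3, without control replicate 2 or 3) and 2 changed sign (BMP2). AATF stayed higher in the arrays labelled siChe-1 in all 15, at 1.05 to 1.23. ID3 passed in 13 of 15. With array weights 6 of the 9 genes, 19 of the 106 other pathway genes and 2865 of all genes passed, against 1, 5 and 685 as reported. With the replicate number as a block the counts were 2 (ID3 and SMAD6, adjusted p = 0.0484 for SMAD6), 8 and 1145. The deviations of same-numbered arrays from their group means correlated at 0.23, 0.06 and -0.04 over genes, against -0.23 to 0.16 for differently numbered arrays. With so few arrays these values do not settle whether equal numbers mark paired arrays. Testing all 33297 probe sets gave 3 pathway genes and 408 probe sets, a count not comparable with that of genes. A threshold of 0.01 gave 3 pathway genes and 261 genes. Leaving out each array in turn gave 0 to 5 of the 9 genes, 3 to 12 pathway genes, 272 to 1565 genes, and -0.21 to 0.051 for BMP2; the highest counts were without siChe-1 replicate 1. The cause of these changes was not tested. Centring on array medians lowered every difference by 0.06. ID4, SMAD7 and BMP2 were not tested after leaving out the dimmest 40% of genes. The low signals of ID4, BMP2 and SMAD7 limit what their differences show.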
